A study of Homo sapiens with 9 samples.

Results

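The vascular receptor and ligand genes described here are FLT1, KDR and FLT4 (the receptors of vascular endothelial growth factor, VEGF), the co-receptors NRP1 and NRP2, the ligands VEGFA and PGF, and APLNR, the apelin receptor. Every probe set of the arrays annotated to exactly 1 of these 8 genes was taken, which gave 32 of the 54613 probe sets that are not controls. FLT1 and APLNR lead the set because of their values in treated against untreated cells, so those values are a description here and carry no p-value. The other 6 genes joined them by family. The study profiled HSF-6, a line of human embryonic stem cells, on 9 arrays in 3 groups of 3. They are HSF-6(8) cells with butyrate and DZNep, HSF-6(S9) cells with butyrate and DZNep, and HSF-6(8) control cells without either compound. Cells were collected after 11 passages in these conditions, with 6 days of growth, and the labels give no doses. No untreated HSF-6(S9) sample was analysed here, so a difference between treated HSF-6(S9) and untreated HSF-6(8) holds both subline and treatment, which cannot be told apart.

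VEGF ligands bind FLT1 and KDR, receptor tyrosine kinases of the endothelial surface, and KDR carries most of the mitogenic signal. FLT1 binds VEGFA and PGF tightly with weak kinase output, and a short transcript ending inside the gene encodes a secreted form that traps the ligands. FLT4 serves the lymphatic ligands VEGFC and VEGFD, neuropilins hold VEGF next to its receptors, and APLNR is a G protein-coupled receptor of apelin and of the embryonic peptide encoded by APELA. In cultures of embryonic stem cells KDR and APLNR are used to follow early mesoderm. Butyrate inhibits histone deacetylases, and DZNep (3-deazaneplanocin A) inhibits S-adenosylhomocysteine hydrolase.

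The start regions of FLT1, whose signal was lower in treated cells, and of KDR, its closest partner receptor, which was not called, are shown for comparison (RefSeq, GRCh38.p14, minus strand of both genes, from 250 bases before to 50 bases after the start). They lie at chr13:28495079-28495378 and chr4:55125546-55125845. Of the 8 genes, FLT1, KDR, NRP2 and PGF had an entry. Capitals mark matches on either strand to TATAAA, TGACGTCA (the cyclic AMP response element), GGGCGG (the GC box) and ACGTG (the hypoxia response core). Matches of different motifs do not overlap in these windows.
FLT1 promoter: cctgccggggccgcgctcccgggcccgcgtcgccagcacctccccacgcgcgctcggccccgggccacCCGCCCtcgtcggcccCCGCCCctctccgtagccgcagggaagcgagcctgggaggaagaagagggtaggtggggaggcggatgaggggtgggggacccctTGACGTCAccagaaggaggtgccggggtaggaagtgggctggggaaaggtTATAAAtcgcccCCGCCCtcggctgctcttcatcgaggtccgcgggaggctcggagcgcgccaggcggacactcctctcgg
KDR promoter: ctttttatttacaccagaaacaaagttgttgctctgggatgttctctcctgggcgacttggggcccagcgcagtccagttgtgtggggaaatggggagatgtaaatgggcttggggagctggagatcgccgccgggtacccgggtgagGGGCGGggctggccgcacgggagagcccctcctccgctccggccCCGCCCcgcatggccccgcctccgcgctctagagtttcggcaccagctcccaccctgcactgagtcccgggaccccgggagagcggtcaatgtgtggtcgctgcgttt
The FLT1 window holds 1 TATAAA, 1 TGACGTCA and 3 GC boxes, and the KDR window holds 2 GC boxes and neither of the other elements. Neither window holds ACGTG. Among all 35116 windows of 300 bases, 11.5% hold TATAAA, 1.85% hold TGACGTCA, 45.0% hold GGGCGG and 21.4% hold ACGTG. FLT1 has 33 CpG dinucleotides in its window and KDR has 22, against a median of 14.0 over all windows. These letters describe the windows and say nothing about binding.

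Levels are MAS5 signals on a linear scale, given per array in the order of the marks in their titles (the first array to the third), or as mean ± SD (n = 3 arrays). Probe sets are not compared with each other by level, since each has its own brightness. The array median ranged over 64.8 to 82.9, and precision is limited by the small number of arrays. Nothing in the labels tells whether arrays of 1 group came from separate cultures. The p-values therefore measure only the spread between these samples, and that spread may be technical. The third arrays carried more 18S ribosomal RNA control signal (723, 2149 and 1194 in treated HSF-6(8), treated HSF-6(S9) and untreated HSF-6(8) cells, against 316 to 513 on the other 6 arrays). Pluripotency markers were bright in all groups: SOX2 lay between 15792 and 37824 and LIN28A between 21802 and 38677 over the 9 arrays. Endothelial markers were mostly dim, with 3 of 22 above the array median on all arrays and none at 0.

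Of the 32 probe sets, 22 passed the filter on low values (at least 3 of the 9 arrays above their own array's median). Those 22 comprised 4 of 6 for FLT1, 1 of 1 for KDR, 2 of 3 for FLT4, 1 of 4 for NRP1, 7 of 11 for NRP2, all 4 for VEGFA, both for PGF and the single one for APLNR. APLNR 213592_at and NRP2 219367_s_at and 1555468_at had 0 untreated arrays above the median and so passed only through treated cells, where they are high. PGF 209652_s_at and NRP2 222877_at had 1 untreated array above the median, too few to pass without the treated arrays, where they are higher. Nothing is read from the p-values of these PGF and NRP2 probe sets, which are given as values only. Changes below are log2 fold changes ± SE from limma on log2(signal + 16), which understates the change of dim genes. A probe set was called when its Benjamini-Hochberg adjusted p over all 29328 kept probe sets was under 0.05 and its change at least 2-fold.

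FLT1 signal was lower in cells of both sublines grown with butyrate and DZNep than in untreated HSF-6(8), with log2 fold changes between -2.18 and -1.62 on 3 of its 4 kept probe sets, and the other did not follow. The brightest FLT1 probe set, 226498_at, had 236, 243 and 249 in treated HSF-6(8), 258, 216 and 191 in treated HSF-6(S9), and 1002, 1075 and 1080.2 in untreated HSF-6(8). Each of the 6 treated arrays lay far below each untreated array, and the groups did not overlap. Its log2 fold change was -2.05 ± 0.17 in treated against untreated HSF-6(8) and -2.18 ± 0.17 in treated HSF-6(S9) against untreated HSF-6(8). Over the reported and the 18 alternative settings the values ranged from -2.15 to -1.86 and from -2.28 to -1.97. Both comparisons use the same untreated arrays.

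A further FLT1 probe set of the same source cDNA, 226497_s_at, had 230.0, 149 and 238 in treated HSF-6(8), 227, 142 and 135 in treated HSF-6(S9), and 545, 731 and 819 in untreated HSF-6(8). FLT1 222033_s_at had 119, 151 and 80.5 in treated HSF-6(8), 127, 149.7 and 108 in treated HSF-6(S9), and 389.7, 404 and 481 in untreated HSF-6(8). Neither treated group overlapped the untreated one on these probe sets. In treated against untreated HSF-6(8), FLT1 226497_s_at had a log2 fold change of -1.69 ± 0.27 and FLT1 222033_s_at of -1.76 ± 0.23. In treated HSF-6(S9) against untreated HSF-6(8) these FLT1 values were -1.97 ± 0.27 and -1.62 ± 0.23. With 1 array left out at a time, the FLT1 change in treated against untreated HSF-6(8) ranged from -1.86 to -1.50 on 226497_s_at and from -1.95 to -1.55 on 222033_s_at. Against untreated HSF-6(8), treated HSF-6(S9) ranged from -2.19 to -1.85 on FLT1 226497_s_at. On FLT1 222033_s_at it ranged from -1.72 to -1.51.

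The remaining kept FLT1 probe set gave no such difference, and those that failed the filter were too dim to tell. FLT1 232809_s_at had 138, 119 and 159 in treated HSF-6(8), 119, 179.8 and 92.5 in treated HSF-6(S9), and 84.5, 166 and 118 in untreated HSF-6(8), with all groups overlapping. Its changes of 0.19 ± 0.28 and 0.08 ± 0.28 were not called. On the same arrays, the log2 difference between FLT1 226498_at and FLT1 232809_s_at was 0.71, 0.94 and 0.59 in treated HSF-6(8), 1.02, 0.24 and 0.93 in treated HSF-6(S9), and 3.34, 2.59 and 3.03 in untreated HSF-6(8). The 2 probe sets therefore changed unequally on every treated array. FLT1 232809_s_at was itself not far above the array medians (64.8 to 82.9), which limits the fall it could show. FLT1 204406_at, from the long reference mRNA, lay between 2.96 and 32.8 over the 9 arrays and failed the filter. FLT1 210287_s_at, from the cDNA of the soluble form, lay between 7.69 and 30.6 on the 6 treated arrays and had 12.6, 45.9 and 149.7 in untreated HSF-6(8). It also failed the filter, and its high value rests on the third untreated array. The files do not say which transcript each probe set reads, so long and short FLT1 transcripts were not separated here.

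**Figure D1:**
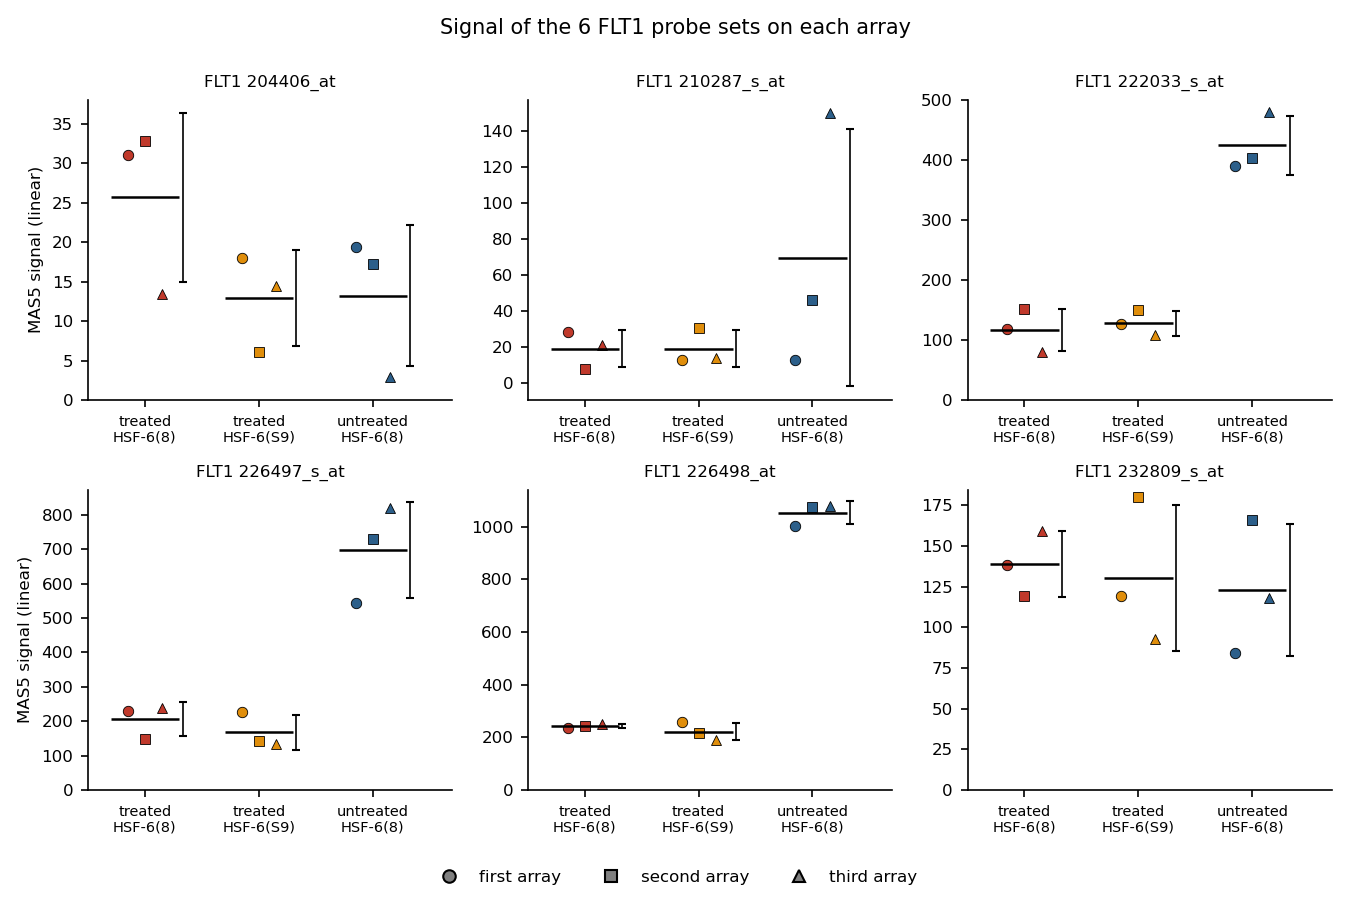
MAS5 signal (linear, vertical axis) of each FLT1 probe set by group; points are single arrays (circle the first, square the second, triangle the third array), the line is the mean and the bar beside it the SD (n = 3). On 226498_at, 226497_s_at and 222033_s_at every treated array lies below every untreated array, while 232809_s_at overlaps between all groups and 204406_at and 210287_s_at stay dim apart from 1 untreated array.

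KDR, the main signalling receptor, did not follow FLT1. KDR 203934_at had 983, 742 and 1549.7 in treated HSF-6(8), 1128, 575 and 706 in treated HSF-6(S9), and 531, 993 and 881 in untreated HSF-6(8). The groups overlapped, and the highest value was that of the third treated HSF-6(8) array. The KDR change in treated against untreated HSF-6(8) was 0.42 ± 0.36 (limma adjusted p = 0.963), with a 95% interval from -0.39 to 1.23. The KDR change was -0.01 ± 0.36 (adjusted p = 0.997, interval from -0.82 to 0.80) in treated HSF-6(S9) against untreated HSF-6(8). These intervals do not include a KDR fall of the size seen on FLT1 226498_at.

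FLT4, the receptor of lymphatic endothelium, was near the array median. Its FLT4 210316_at signal averaged 111 ± 84.9 in treated HSF-6(8), 76.5 ± 27.6 in treated HSF-6(S9) and 69.3 ± 12.1 in untreated HSF-6(8), and the treated spread came from the third array (206). FLT4 229902_at averaged 76.4 ± 10.1, 91.5 ± 28.0 and 91.2 ± 65.6 in the same order. Neither was called, with changes of 0.37 ± 0.44 and -0.04 ± 0.40 in treated against untreated HSF-6(8) (limma adjusted p = 0.999 for both). FLT4 234379_at failed the filter.

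The neuropilins differed from each other. NRP1, co-receptor of VEGF and of class 3 semaphorins, was measurable above the filter on 1 of 4 probe sets, 212298_at, with 76.0 ± 16.4 in treated HSF-6(8), 74.1 ± 3.79 in treated HSF-6(S9) and 72.3 ± 21.3 in untreated HSF-6(8). The NRP1 change in treated against untreated HSF-6(8) was 0.07 ± 0.22 (limma adjusted p = 0.999, interval from -0.42 to 0.56).

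NRP2, the neuropilin that also serves VEGFC, had higher values in treated cells on some of its probe sets. NRP2 219367_s_at had 165, 118 and 137 in treated HSF-6(8), 117, 77.3 and 273 in treated HSF-6(S9), and 18.0, 15.8 and 52.1 in untreated HSF-6(8). All 6 treated arrays lay above the untreated ones. Its change was 1.89 ± 0.43 in treated against untreated HSF-6(8) (limma adjusted p = 0.172) and 1.87 ± 0.43 in treated HSF-6(S9) against untreated HSF-6(8) (adjusted p = 0.131), so it was not called. With the replicate mark of the titles as a block, NRP2 219367_s_at was called in both comparisons (adjusted p = 0.0488 and 0.0419). These were its only calls in 17 settings, and with no filter its adjusted p was 0.284 and 0.216. Since NRP2 219367_s_at passed the filter only through treated cells, where it is high, nothing is read from its block calls. Its change also depends on the number added, at 2.44 with 1 and 1.15 with 64 added in treated against untreated HSF-6(8).

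NRP2 222877_at gave 202, 144 and 189 in treated HSF-6(8), 196, 146 and 593 in treated HSF-6(S9), and 55.3, 40.5 and 125 in untreated HSF-6(8). Its groups did not overlap either, and the third array was the highest in treated HSF-6(S9) and in untreated HSF-6(8). The NRP2 222877_at change was 1.22 ± 0.50 in treated against untreated HSF-6(8) (adjusted p = 0.591) and 1.73 ± 0.50 in treated HSF-6(S9) against untreated HSF-6(8) (adjusted p = 0.212). NRP2 225566_at, its brightest probe set, had 285, 386 and 551 in treated HSF-6(8), 543, 357 and 649.9 in treated HSF-6(S9), and 227, 217 and 326 in untreated HSF-6(8), with changes of 0.61 ± 0.30 and 0.95 ± 0.30 (adjusted p = 0.747 and 0.265). NRP2 229225_at was highest on the third array of each group, at 307, 659 and 237 in the same order. The higher 18S control signal of the third arrays moved with these NRP2 values, and its part in them was not tested. Of the other kept NRP2 probe sets, 1555468_at had 1.02 ± 0.40 in treated against untreated HSF-6(8) (adjusted p = 0.554), and 210841_s_at and 214632_at had -0.05 ± 0.40 and 0.12 ± 0.47 (adjusted p = 0.999 for both).

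The 2 ligand genes had 1 probe set each with a higher value in treated cells, and neither was called. VEGFA, the main angiogenic ligand, had on 210512_s_at 2259, 2314 and 2042 in treated HSF-6(8), 2131, 1337 and 1409 in treated HSF-6(S9), and 1189, 1193 and 1482 in untreated HSF-6(8). The VEGFA values of treated and untreated HSF-6(8) did not overlap, those of treated HSF-6(S9) and untreated HSF-6(8) did. The VEGFA change was 0.77 ± 0.22 in treated against untreated HSF-6(8) (limma adjusted p = 0.285), 0.31 ± 0.22 in treated HSF-6(S9) against untreated HSF-6(8) (adjusted p = 0.663) and -0.47 ± 0.22 in treated HSF-6(S9) against treated HSF-6(8) (adjusted p = 1.000, interval from -0.95 to 0.02). The other VEGFA probe sets, 210513_s_at, 211527_x_at and 212171_x_at, had changes from 0.05 to 0.27 in treated against untreated HSF-6(8).

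PGF, placental growth factor, which binds FLT1 and not KDR, had on 209652_s_at 129, 160.3 and 144 in treated HSF-6(8), 141, 132 and 131 in treated HSF-6(S9), and 51.7, 87.7 and 55.2 in untreated HSF-6(8). All treated arrays lay above all untreated arrays. The PGF change was 1.01 ± 0.20 in treated against untreated HSF-6(8) (limma adjusted p = 0.120) and 0.92 ± 0.20 in treated HSF-6(S9) against untreated HSF-6(8) (adjusted p = 0.119), and it was not called in any of the 17 settings in which it could be fitted. The brighter PGF 215179_x_at, whose suffix marks probes that can match other genes, averaged 769 ± 142 in treated HSF-6(8), 628 ± 287 in treated HSF-6(S9) and 688 ± 237 in untreated HSF-6(8), and its groups overlapped.

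APLNR was near the floor of the arrays in untreated cells and well above it on all treated arrays. APLNR 213592_at had 165, 137 and 527 in treated HSF-6(8), 171, 181 and 247 in treated HSF-6(S9), and 5.86, 34.6 and 8.12 in untreated HSF-6(8). All 6 treated arrays lay above the untreated ones, and the third treated HSF-6(8) array stood well above the other treated arrays. The APLNR change was 3.05 ± 0.49 in treated against untreated HSF-6(8) and 2.84 ± 0.49 in treated HSF-6(S9) against untreated HSF-6(8), and both use the same untreated arrays. All 3 untreated signals lay below their array's median, so the size depends on the number added: it was 4.14 with 1 and 1.92 with 64 added in treated against untreated HSF-6(8). With 1 array left out at a time, that APLNR value ranged from 2.48 (without the third treated HSF-6(8) array) to 3.43 (without the second untreated array). In treated HSF-6(S9) against untreated HSF-6(8) it ranged from 2.61 to 3.22.

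**Figure D2:**
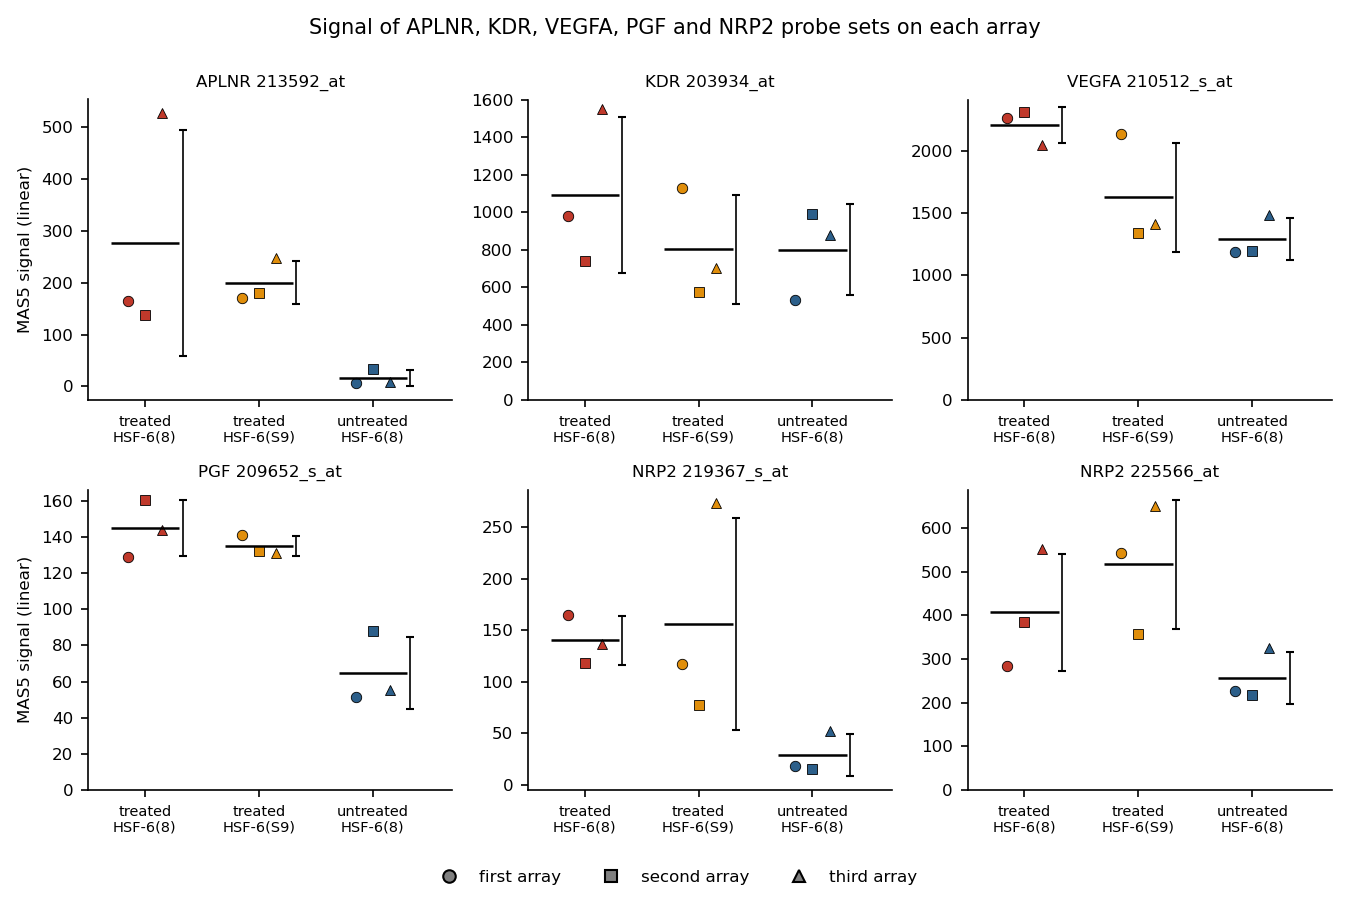
MAS5 signal (linear, vertical axis) of 6 member probe sets by group; points are single arrays (circle the first, square the second, triangle the third array), the line is the mean and the bar beside it the SD (n = 3). APLNR 213592_at, PGF 209652_s_at and NRP2 219367_s_at have every treated array above every untreated one, whereas KDR 203934_at overlaps and the third treated HSF-6(8) array is the highest for APLNR and KDR.

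The third treated HSF-6(8) array also carried more signal of some mesoderm markers. The summed signal of 15 mesoderm markers was 2924, 2982 and 8240.3 in treated HSF-6(8), 2503, 2558 and 3771 in treated HSF-6(S9), and 1968, 2056 and 1915 in untreated HSF-6(8). In treated HSF-6(8), MIXL1 had 38.4, 78.1 and 1541, TBXT had 105, 98.9 and 884, and EOMES had 255, 337 and 3419. BMP4, TBX6 and ISL1 were instead lowest on the third array of that group, at 519, 97.3 and 43.7. MESP1, PDGFRA, MSX1, GATA4 and LEF1 were also highest on the third array of that group, at 95.1, 426, 206, 299.9 and 232. HAND1, MSX2 and TBX3 lay between the other arrays there. EOMES, MIXL1, TBXT and the sum thus moved with APLNR on that array, and not every gene of the list did. The part of mesoderm cells in the APLNR values was not tested. In these bulk samples fewer cells of a type and less RNA per cell cannot be told apart.

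Of the 22 kept probe sets, 3 were called lower and 1 higher in treated against untreated HSF-6(8), where 0.0273% and 0.273% of all kept probe sets were called lower and higher. The 3 are FLT1 and the 1 is APLNR, which were chosen from this contrast. Their calls were not equally stable. FLT1 226498_at was called in 19 of 19 settings, FLT1 222033_s_at in 12 of 17, FLT1 226497_s_at in 7 of 18 and APLNR in 4 of 18. In addition, 3 members passed the filter only through treated cells, and PGF 209652_s_at and NRP2 222877_at needed treated arrays to pass. Nothing is therefore read from the counts in this paragraph. The groups did not overlap for 6 probe sets that were higher and 3 that were lower, against 8.82% and 6.04% of all kept probe sets. For treated HSF-6(S9) against untreated HSF-6(8), 3 were called lower (0.0750% of all kept probe sets) and 0 higher (0.314% of all), and 5 higher and 3 lower did not overlap (9.07% and 8.35% of all). At an unadjusted p under 0.05 (limma), 6 were higher and 3 lower in treated against untreated HSF-6(8) (5.11% and 2.41% of all), and 8 differed in treated HSF-6(S9) against untreated HSF-6(8) (11.3% of all). The median change of the kept members was 0.25 and 0.13 in these comparisons, against 0.02 and -0.01 over all kept probe sets. With the replicate block, called members numbered 5 in each comparison (with 1 array left out, 1 to 3 in treated against untreated HSF-6(8) and 1 to 4 in treated HSF-6(S9) against untreated HSF-6(8)), and called probe sets in all numbered 148 instead of 88 and 233 instead of 114.

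No member was called between the treated sublines. In treated HSF-6(S9) against treated HSF-6(8), 0 of the 22 probe sets were called by limma, as were 0 of all 29328 (0%), and 0 of the 22 had an unadjusted p under 0.05, against 2.43% of all. The groups overlapped on all 22, whereas 6.46% of all kept probe sets did not overlap. The differences ran from -0.47 ± 0.22 for VEGFA 210512_s_at to 0.52 ± 0.50 for NRP2 222877_at. FLT1 226498_at differed by -0.13 ± 0.17 and APLNR by -0.21 ± 0.49. For PGF 209652_s_at the 95% interval was -0.55 to 0.37, which is narrower than a 2-fold difference, and for KDR it was -1.24 to 0.38, which is not. An uncalled difference does not show that the sublines are alike.

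**Figure D3:**
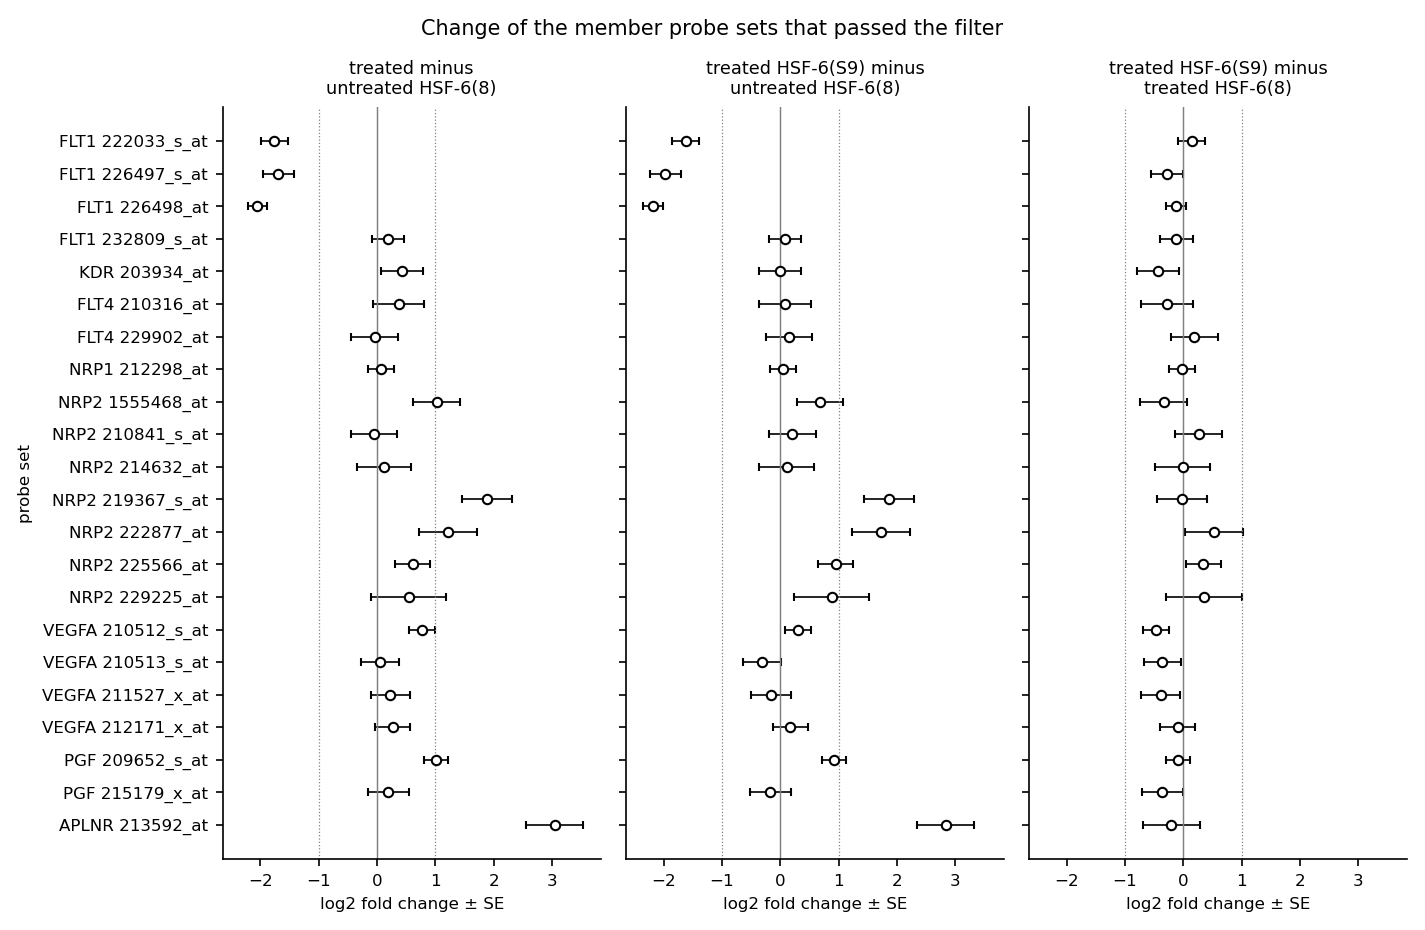
Log2 fold change ± SE (limma, 16 added to each signal) of the 22 member probe sets that passed the filter, in 3 comparisons; points are probe sets, bars the SE, and dotted lines mark a 2-fold change. FLT1 lies at the left on 3 probe sets and APLNR at the right in both comparisons with untreated HSF-6(8), and in the comparison of treated sublines all points lie within 2-fold of 0.

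Other genes of the pathways, each read by its brightest kept probe set, gave few calls. Lists are described by counts, beside 0.444% of 13519 genes called higher and 0.0444% called lower in treated against untreated HSF-6(8), where the median change of all genes was 0.00. In that comparison 8.85% of all genes had an unadjusted p under 0.05 in either direction, the share to set beside each such count. A list gene could pass the filter only through treated arrays, where it is high, so nothing is read from the counts of higher values. Of the apelin and VEGF ligands not among the members, 3 of 5 were kept and 0 were called by limma (1 lower at an unadjusted p under 0.05). APELA, the second ligand of APLNR, averaged 4206 ± 1188 in treated and 6881 ± 150.4 in untreated HSF-6(8), a change of -0.75 ± 0.30 (adjusted p = 0.575). VEGFB and VEGFC had -0.22 ± 0.30 and -0.12 ± 0.21 (adjusted p = 0.999 for both). Of 16 kept genes of VEGF receptor signalling, 0 were called and 0 had an unadjusted p under 0.05, with a median change of 0.10. Of 8 kept semaphorins and plexins, partners of the neuropilins, 0 were called and 1 was higher at an unadjusted p under 0.05, the median was 0.28, and the largest values were those of PLXNA2 (1.14 ± 0.49, adjusted p = 0.633) and SEMA3A (-0.49 ± 0.60, adjusted p = 0.999). The 14 kept angiopoietin, Notch and ephrin genes had 0 called, 0 with an unadjusted p under 0.05 and a median of -0.04, with ANGPT2, an angiopoietin, at 0.98 ± 0.55 (adjusted p = 0.825) and EFNB2, an arterial ephrin, at 0.62 ± 0.45 (adjusted p = 0.920).

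Treated HSF-6(S9) against untreated HSF-6(8), which shares the untreated arrays, had 0 limma calls as well in the lists other than the trophoblast one, beside a median of all genes of 0.01. Here 12.8% of all genes had an unadjusted p under 0.05 in either direction, the share to set beside the counts below. The angiopoietin, Notch and ephrin genes had a median of -0.15 and 3 lower values at an unadjusted p under 0.05, those of HEY1 (-0.87 ± 0.35, adjusted p = 0.395) and HEY2 (-0.92 ± 0.35, adjusted p = 0.364), targets of Notch, and of TGFBR2 (-0.58 ± 0.19, adjusted p = 0.270), a TGF-beta receptor. These 3 were named for that count after their values were seen, and in treated against untreated HSF-6(8) they had -0.40 ± 0.35, -0.60 ± 0.35 and -0.33 ± 0.19. The apelin and VEGF ligands had 1 lower value at an unadjusted p under 0.05, that of APELA (-0.87 ± 0.30), with a median of -0.07. VEGF receptor signalling genes and semaphorins and plexins had 0, with medians of -0.01 and 0.33. Hypoxia pathway genes had 3 higher and 0 lower (median 0.26), endothelial markers 2 higher and 2 lower (-0.25), stromal genes 1 higher and 0 lower (0.18), mural genes 1 higher and 1 lower (0.05), and pluripotency genes 0 higher and 1 lower (-0.22).

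Genes of the hypoxia pathway, which drives VEGFA in many tissues, had 0 called of 18 kept by limma and 2 higher at an unadjusted p under 0.05. Their median was 0.25, with EPAS1, a hypoxia-inducible factor subunit, at 1.63 ± 0.63 (adjusted p = 0.552) and NDRG1, a hypoxia-responsive gene, at 0.58 ± 0.19 (adjusted p = 0.427).

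Endothelial markers did not give a common direction. Of 22, 11 were kept, 0 were called, and 2 were higher and 1 lower at an unadjusted p under 0.05 (limma; median change -0.07 in treated against untreated HSF-6(8)). VWF, the von Willebrand factor gene, averaged 205 ± 70.5 in treated and 42.9 ± 26.0 in untreated HSF-6(8) (1.95 ± 0.36, adjusted p = 0.0896). NOS3, the endothelial nitric oxide synthase gene, had 1.14 ± 0.46 (adjusted p = 0.591). VWF had 30.6, 72.8 and 25.4 in untreated HSF-6(8) and needed treated arrays to pass the filter, so nothing is read from its p-value. Of the 11 values 5 were above 0, and the lowest were ECSCR (-0.80 ± 0.50), ICAM2 (-0.63 ± 0.42) and EGFL7 (-0.57 ± 0.24). In treated HSF-6(S9) against untreated HSF-6(8), ECSCR had -1.64 ± 0.50 and NOS3 1.44 ± 0.46. CDH5, the vascular cadherin, lay between 17.9 and 55.7 in treated HSF-6(8), between 4.64 and 12.4 in treated HSF-6(S9) and between 6.97 and 38.0 in untreated HSF-6(8), below the lowest array median. The summed signal of the endothelial list lay between 1891 and 2663 in treated HSF-6(8), between 1782 and 2148 in treated HSF-6(S9) and between 1869.8 and 2277 in untreated HSF-6(8), so the groups overlapped.

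Mesoderm markers had no call, and most but not all of their values were above 0. Of 15, 14 were kept, 0 were called and 6 were higher and 0 lower at an unadjusted p under 0.05 (limma, against 8.85% of all genes in either direction), with a median of 0.93 and 12 values above 0 in treated against untreated HSF-6(8). MESP1 and BMP4, a mesoderm factor and a mesoderm-inducing ligand, had -0.02 ± 0.34 and -0.12 ± 0.27. In treated HSF-6(S9) against untreated HSF-6(8), 10 of the 14 values were above 0, 8 were higher and 0 lower at an unadjusted p under 0.05 (12.8% of all genes in either direction), and the median was 0.79. MIXL1, MESP1, TBX6 and BMP4 were below 0 there, at -0.07 ± 1.01, -0.24 ± 0.34, -0.64 ± 0.34 and -0.34 ± 0.27. LEF1, a WNT pathway transcription factor, had 2.80 ± 0.51 in treated against untreated HSF-6(8) (adjusted p = 0.0886) and 2.78 ± 0.51 in treated HSF-6(S9) against untreated HSF-6(8) (adjusted p = 0.0706). EOMES, a primitive streak factor, had 255, 337 and 3419 in treated HSF-6(8), 245, 246 and 377 in treated HSF-6(S9), and 111, 230.2 and 234 in untreated HSF-6(8). Its changes were 1.80 ± 0.82 (adjusted p = 0.683) and 0.59 ± 0.82 (adjusted p = 0.855), and the first rests on the third treated HSF-6(8) array. In the trophoblast list, the lineage in which FLT1 and PGF are known for high expression, 5 of 15 genes were kept and GATA3, a trophoblast transcription factor, was the 1 called. GATA3 averaged 743 ± 75.2 in treated and 153 ± 26.2 in untreated HSF-6(8) (2.17 ± 0.22, adjusted p = 0.00413) and rose in all 19 settings. GATA3 was also, in treated HSF-6(S9) against untreated HSF-6(8), the 1 gene of the 11 lists called (2.19 ± 0.22, adjusted p = 0.00441, in 18 of 19 settings, lost on the first and second arrays only with adjusted p = 0.0556), where 0.481% of all genes were called higher and 0.118% lower. The other kept genes, GATA2, TFAP2A, CGA and KRT7, were not called in treated against untreated HSF-6(8). They had 0.77 ± 0.24, 0.63 ± 0.52, 0.90 ± 0.82 and 0.16 ± 0.36 (adjusted p = 0.363, 0.954, 0.970 and 0.999). The summed signal of 14 trophoblast genes lay between 1796 and 2647 in treated HSF-6(8), between 1823 and 2733 in treated HSF-6(S9) and between 864 and 1213 in untreated HSF-6(8). That sum contains GATA3 and also genes that failed the filter. Whether trophoblast cells were present, and any part of them in the PGF values, was not tested. Of 8 kept stromal, 8 mural and 11 pluripotency genes 0 were called, with 2, 1 and 0 higher and 0, 0 and 0 lower at an unadjusted p under 0.05, and medians of 0.41, -0.01 and -0.19. Their largest values were 1.10 ± 0.27 for COL1A1 (adjusted p = 0.213) and -0.72 ± 0.49 for THY1 (0.897) in stroma, -0.87 ± 0.62 for TAGLN (0.911) and 0.74 ± 0.26 for MCAM (0.463) in mural cells, and -0.55 ± 0.26 for PODXL (0.694) and -0.48 ± 0.26 for NANOG (0.793) in pluripotency.

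Genes whose levels followed FLT1 or APLNR most closely across the 9 arrays were listed as a description. With FLT1 226498_at, the highest Pearson correlations of log2(signal + 16) among 1384 probe sets that spanned at least 2-fold between groups were those of MBD3L2 (0.994), FLVCR1 (0.974), FAM110C (0.961), MYL9 (0.955) and NLGN4X (0.952). MBD3L2 averaged 6.24 ± 1.65 in treated HSF-6(8), 2.60 ± 1.57 in treated HSF-6(S9) and 207 ± 55.9 in untreated HSF-6(8). FLVCR1, a heme exporter gene, averaged 1509.8 ± 51.7, 1332 ± 178 and 2783 ± 162 in the same order. With APLNR, among 1386 probe sets, they were TCIM (0.981), CBR1 (0.976), FN1 (0.964), KRT10-AS1 (0.963) and FST (0.962). FN1, which encodes fibronectin, averaged 6357 ± 1684 in treated HSF-6(8), 5456 ± 788 in treated HSF-6(S9) and 2028 ± 102 in untreated HSF-6(8), and FST, which encodes the activin inhibitor follistatin, 5462 ± 1068, 5396 ± 1281 and 2562 ± 259.7. The points share the 3 groups, so these correlations mostly restate the step between untreated and treated arrays.

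**Figure D4:**
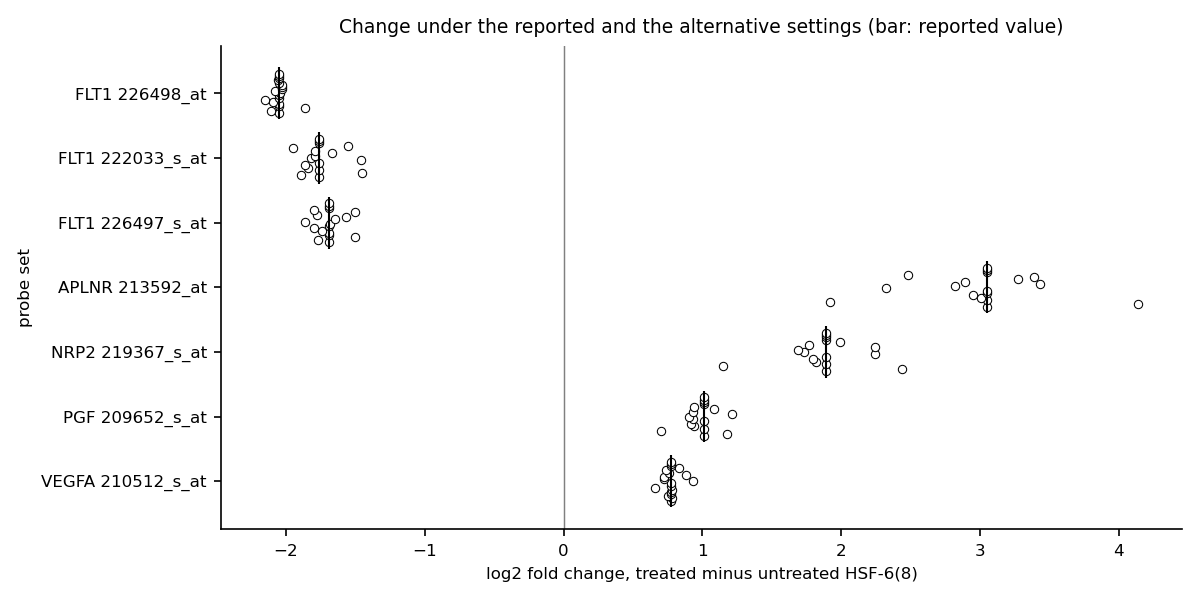
Log2 fold change in treated against untreated HSF-6(8) of 7 member probe sets (vertical axis) under the reported setting (vertical bar) and the alternatives (circles). FLT1 226498_at stays between -2.15 and -1.86, APLNR 213592_at spreads from 1.92 to 4.14, and PGF 209652_s_at and VEGFA 210512_s_at stay above 0 in the settings run.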

How the data were processed

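RNA of 9 samples was hybridised to 9 arrays. Each deposited value is a linear signal intensity of 1 probe set, made by the authors with Affymetrix Expression Console and MAS5 per the submitters' processing notes, and versions were not known here. In the table each array is scaled, so that the mean without the top and bottom 2% was about 500.1 on every array. The table held 54675 probe sets without detection calls, 62 of them controls.

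Probe sets were named from the platform annotation, with symbols updated by Entrez number, and 41091 mapped to a single gene. After adding 16 and taking log2, 29328 probe sets passed the filter (at least 3 arrays above their own median), and all 9 arrays entered 1 limma 3.58.1 model in R 4.3.3 with 6 residual and 3.2 prior degrees of freedom. P-values were two-sided. The steps were tested on simulated data.

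All 8 genes were described on their kept probe sets. Of the probe sets that failed the filter, only those of FLT1 are given with values. From each of 11 gene lists up to 4 called genes were named, or the 2 largest changes. For FLT1 and for APLNR the 5 genes closest in Pearson correlation were named. SOX2, LIN28A, CDH5, APELA, VEGFB and VEGFC were chosen for their role, and ECSCR, ICAM2 and EGFL7 as the lowest endothelial values. The members and lists were chosen with earlier results of these data known.

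Alternatives were 1 or 64 added, no filter or a 75th percentile filter, quantile or median scaling, 1 probe set per gene, a replicate block, the first and second arrays only, and leaving out each array. The prime marks of the titles served as replicate numbers. After removing group means, same-marked arrays correlated at 0.319, 0.279 and 0.585 between treated and untreated HSF-6(8), at 0.272, 0.223 and 0.405 between the treated sublines, and at 0.124, 0.196 and 0.537 between treated HSF-6(S9) and untreated HSF-6(8). First and second arrays correlated as much across marks (0.383 and 0.291 in the first of these comparisons), so pairs are not shown for them. The marks were used as pairs only in the replicate block, and the reported fit had no block.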

Additional observations from a re-analysis of the deposited data

How the results depend on the processing

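Over all kept probe sets, the count called in treated against untreated HSF-6(8), 88, became 53 with no filter, 48 with the 75th percentile filter, 148 with the replicate block and 46 on the first and second arrays only, and 42 to 111 with 1 array left out. In treated HSF-6(S9) against untreated HSF-6(8), 114 became 59 with no filter, 233 with the replicate block and 47 on the first and second arrays only, and 36 to 146 with 1 array left out. Between the treated sublines 0 became 1 with 1 added, quantile normalization, median scaling or 1 probe set per gene. Among the 22 member probe sets, the 4 called in treated against untreated HSF-6(8) became 2 with 1 added, no filter, the 75th percentile filter or 1 probe set per gene, 1 on the first and second arrays only, and 1 to 3 with 1 array left out. The 3 called in treated HSF-6(S9) against untreated HSF-6(8) became 5 with the replicate block, 1 on the first and second arrays only, and 1 to 4 with 1 array left out. No called change of a member turned its sign; uncalled ones did in 21, 33 and 24 of 367 values in treated against untreated HSF-6(8), between the treated sublines, and in treated HSF-6(S9) against untreated HSF-6(8). With the 75th percentile filter, FLT1 222033_s_at and APLNR were not fitted. With 1 probe set per gene, FLT1 222033_s_at and FLT1 226497_s_at were not fitted. In treated against untreated HSF-6(8), the called members that were still fitted in these settings stayed called. Fewer arrays leave fewer degrees of freedom, and the filters change the number of probe sets over which p is adjusted. Other causes were not tested. The replicate block changed no member call other than those of NRP2 219367_s_at in both comparisons with untreated HSF-6(8) and of APLNR in treated HSF-6(S9) against untreated HSF-6(8). Signals near the array floor limit the folds of APLNR and of NRP2 219367_s_at.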
